A study of Homo sapiens with 6 samples.

Results

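The 9 neuroendocrine marker genes *CHGA*, *CHGB*, *SYP*, *ENO2*, *NCAM1*, *SCG2*, *SYT4*, *CPE* and *INSM1* were taken from the 29806 genes of the deposited counts by their NCBI Gene numbers. They are used in pathology and in transcriptome studies to recognise neuroendocrine prostate cancer. Reads were counted in 6 libraries of polyA RNA, 3 from the LNCaP parental group and 3 from the PACT KO group. LNCaP cells derive from a human prostate cancer and respond to androgen, and the parental cells are labelled wild type. The PACT KO cells carry a CRISPR-Cas9 knockout of PACT (gene *PRKRA*) in the same line and came from 1 clone, so the replicates are dishes and do not show how clones differ. All cells were plated at 1000000 per 10 cm dish in RPMI-1640 with 10% FBS, and RNA was taken 48 h later at about 80% confluency. The labels name no other treatment. The comparison asks how these genes differ between PACT KO and LNCaP parental cells.

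Neuroendocrine cells store peptides and amines in dense-core granules and release them when calcium rises. The granins *CHGA*, *CHGB* and *SCG2* are the bulk cargo of such granules, *CPE* trims peptide precursors inside them, and *SYP* and *SYT4* are membrane proteins of secretory vesicles. *ENO2* (neuron-specific enolase) is a glycolytic enzyme, *NCAM1* (CD56) a cell adhesion molecule and *INSM1* a zinc finger transcription factor of neuroendocrine differentiation. Luminal prostate cancer cells normally lack most of this program. It can appear when prostate cancer escapes therapies that target the androgen receptor.

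Of the 9 genes, 4 had enough reads to be tested (*CPE*, *SYT4*, *ENO2* and *SYP*), 2 were at a few reads (*NCAM1* and *SCG2*), and 3 were not detected, which here means at most 3 reads in every library (*CHGA*, *CHGB* and *INSM1*). *SYT4* fell and *CPE* rose in PACT KO cells, and *ENO2* and *SYP* did not pass the test. The granins and *INSM1* stayed at or near 0 in both groups. A gene was called where edgeR's quasi-likelihood test gave FDR < 0.01 over all 14462 genes tested, and called a DEG if its absolute fold change was also at least 1.5, the thresholds of the study. Of all genes tested, 34.2% were called and 5.72% were DEGs. Among the 4 marker genes tested, 1 was called lower, where 18.8% of all genes were, and 1 was called higher, where 15.3% were. *SYT4* was also a DEG, as were 2.65% of all genes in that direction, and 3.07% were DEGs in the other. The median log2 fold change of these 4 genes was 0.06, and that of all genes tested was 4.4e-04.

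The promoters of *SYT4* and *CPE* are shown because these genes were called, and that of *CHGA* because it belongs to the defining marker that was not detected. Each run is the 250 bases before the RefSeq start, 5′ to 3′ on the strand of the gene (GRCh38.p14), at chr18:43277491-43277740 (minus strand) for *SYT4*, chr4:165378758-165379007 (plus strand) for *CPE* and chr14:92922900-92923149 (plus strand) for *CHGA*. Capitals mark matches to TGACGT, the core of the cAMP response element, on either strand. The start used for *CHGA* lies inside the RefSeq span of the gene.
SYT4: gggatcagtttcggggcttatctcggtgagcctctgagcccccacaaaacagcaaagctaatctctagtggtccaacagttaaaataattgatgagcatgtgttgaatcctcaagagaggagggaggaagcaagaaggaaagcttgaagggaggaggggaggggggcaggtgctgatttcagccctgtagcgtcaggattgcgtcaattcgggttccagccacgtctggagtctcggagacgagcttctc
CPE: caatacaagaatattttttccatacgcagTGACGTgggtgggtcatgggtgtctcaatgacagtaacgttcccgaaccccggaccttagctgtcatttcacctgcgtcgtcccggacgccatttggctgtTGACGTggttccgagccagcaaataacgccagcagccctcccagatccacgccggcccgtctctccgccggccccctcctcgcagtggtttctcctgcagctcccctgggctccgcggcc
CHGA: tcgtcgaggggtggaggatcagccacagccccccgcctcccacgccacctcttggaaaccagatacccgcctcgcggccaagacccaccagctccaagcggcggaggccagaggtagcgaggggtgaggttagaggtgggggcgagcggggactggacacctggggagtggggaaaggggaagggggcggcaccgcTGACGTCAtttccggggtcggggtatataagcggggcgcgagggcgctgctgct

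The table of promoters held 5 of the 9 genes, namely *CHGA*, *SYP*, *ENO2*, *SYT4* and *CPE*. *CPE* held TGACGT at 2 places, from 221 to 216 and from 120 to 115 bases before the start. *CHGA* held the complete palindrome TGACGTCA from 54 to 47 bases before the start, in which TGACGT matches on both strands. No match was found in the windows of *SYT4*, *ENO2* and *SYP*. Among all 35116 promoters of the table, 7.10% held TGACGT in the same window and 1.65% held TGACGTCA. Also searched on both strands were GGACAG and TTCAGCACC, parts of the element bound by the repressor REST, AGAACA of androgen receptor sites, and the E-box CAGCTG. They were in 17.2%, 0.288%, 12.4% and 14% of all promoters and in 0 of these 5. The *SYT4* window had a GC content of 52.8% with 8 CpG sites, below those of *CPE* (60.4%, 20 CpG), *CHGA* (68.8%, 21 CpG), *ENO2* (74.0%, 30 CpG) and *SYP* (74.0%, 31 CpG). The median of all promoters was 58.0% with 11 CpG sites.

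The libraries held 19930060 to 24940838 reads on genes, and 3 reads were worth 0.121 to 0.148 CPM, the read count relative to the library total scaled by TMM. Such limits cover counting error only. *PRKRA* itself had 882, 809 and 866 reads in the parental dishes against 291, 331 and 243 in the KO dishes. Luminal prostate markers were expressed in every library, with a summed level of 11 genes of 5172 to 5208 CPM in parental libraries and 5336 to 5426 CPM in KO libraries. Of these luminal genes, 4 were called lower and 4 higher, 72.7% against 34.2% of all genes, and both DEGs among them were lower. These were *KLK3* (prostate-specific antigen), at 63.8 ± 2.70 CPM in parental and 11.3 ± 0.568 CPM in KO libraries, and *KLK2*, at 26.9 ± 1.598 and 15.1 ± 1.26 CPM (SD, n = 3 each, named after their values were seen). Markers of basal cells summed to at most 0.185 CPM. The neuronal genes *RBFOX3*, *SLC17A7* and *GAD1* summed to 0.404 to 0.705 CPM in parental libraries and 0.364 to 0.742 CPM in KO libraries. Endothelial (*PECAM1*, *CDH5*), fibroblast (*COL1A2*), immune (*CD3E*) and glial (*GFAP*) markers had no reads. Other genes of those lists were expressed, led by *COL1A1* and *COL3A1*, *VWF*, *CD68* and *MBP*. The summed fibroblast list was 33.0 to 37.6 CPM in parental libraries and 44.6 to 50.1 CPM in KO libraries, and the endothelial list 24.3 to 27.0 and 15.6 to 17.7 CPM. The immune list was at 2.17 to 2.34 and 1.498 to 1.78 CPM and the glial list at 70.7 to 72.7 and 59.6 to 62.8 CPM. Their part in the results was not tested.

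**Figure D1:**
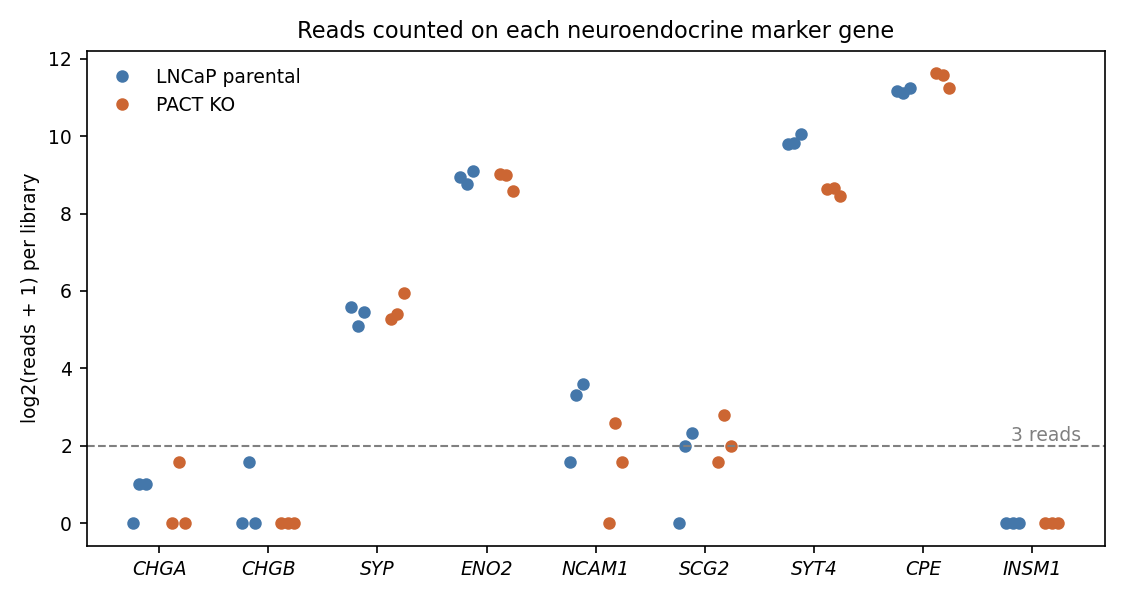
Reads counted on each of the 9 marker genes in each library, as log2(reads + 1), with LNCaP parental replicates in blue and PACT KO replicates in orange. The dashed line is at 3 reads, below which all 6 libraries lie for *CHGA*, *CHGB* and *INSM1*.

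*CHGA*, number 1113 at chr14:92922664-92935285 (RefSeq, GRCh38.p14, as for every gene here), encodes chromogranin A, the granin most used as a marker. Its reads numbered 0, 1 and 1 in LNCaP parental replicates 1, 2 and 3 and 0, 2 and 0 in PACT KO replicates 1, 2 and 3. *CHGB*, number 1114 at chr20:5911510-5925353, encodes chromogranin B. Its reads were 0, 2 and 0 in the parental dishes and 0 in each PACT KO replicate. *INSM1*, number 3642 at chr20:20368104-20370949, had 0 reads in all 6 libraries. In none of these 3 genes did a library exceed the level that a count of 0 allows, so a difference between the groups was not detectable at this depth, and no fold change is given.

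*SCG2*, number 7857 at chr2:223596940-223602361, encodes secretogranin II, the precursor of the peptide secretoneurin. It had 0, 3 and 4 reads in the parental dishes against 2, 6 and 3 in the KO dishes, and the groups overlapped. *NCAM1*, number 4684 at chr11:112961420-113278436, had 2, 9 and 11 reads in the parental dishes against 0, 5 and 2 in the KO dishes, a mean of 0.316 ± 0.198 CPM against 0.102 ± 0.103 CPM (SD, n = 3 each). The groups of *NCAM1* overlapped as well, since LNCaP parental replicate 1 lay below PACT KO replicate 2. An exact permutation test of the CPM (2-sided) gave p = 0.30 for *NCAM1* and p = 0.50 for *SCG2*, where 3 dishes against 3 cannot go below 0.10. Both genes fell short of the filter on low counts. In the edgeR fit without that filter, *NCAM1* had a log2 fold change of -1.597 (SE 0.69, FDR = 0.0642) and *SCG2* one of 0.63 (SE 0.84, FDR = 0.612), and neither was called. In GENCODE release 29, *NCAM1* shares 4.33% of its exonic bases with the antisense gene *NCAM1-AS1* and 1.19% with the antisense gene *AP000802.1*. The use of strand in counting is not given in the sources used here, so reads on the shared bases cannot be told apart.

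*SYT4*, number 6860 at chr18:43267892-43277490 on the minus strand, encodes synaptotagmin 4, which regulates the fusion of secretory vesicles. It had 893, 903 and 1060 reads in the parental dishes against 398, 406 and 348 in the KO dishes. All 3 PACT KO replicates lay below all 3 LNCaP parental replicates, as they also did after scaling, at 39.3, 41.8 and 42.8 CPM against 16.1, 16.7 and 17.2 CPM. The level fell from 41.3 ± 1.78 to 16.7 ± 0.552 CPM (n = 3 each, SD), 2.48-fold lower, with a log2 fold change (log2FC) of -1.31 (SE 0.06, 95% interval -1.43 to -1.19, FDR = 1.79e-20 in edgeR). Of all genes tested, 1.51% had a larger absolute change. The groups were apart in 52.2% of all genes tested, with PACT KO cells lower in 27.2% and higher in 25.1%. In bulk RNA, fewer cells that express a gene and less of its RNA per cell cannot be told apart.

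*CPE*, number 1363 at chr4:165379008-165498547 on the plus strand, encodes carboxypeptidase E, which removes basic residues from the ends of cleaved peptide precursors. Of the 9 genes it had the most reads in every library, with 2288, 2217 and 2441 in the parental dishes against 3159, 3034 and 2435 in the KO dishes. After scaling, these were 100.8, 102.5 and 98.6 CPM against 127.9, 124.8 and 120.4 CPM, and the groups did not overlap. The mean rose from 100.6 ± 1.99 to 124.3 ± 3.73 CPM (n = 3 each, SD), 1.24-fold higher, with log2FC 0.31 (SE 0.03, 95% interval 0.24 to 0.37, FDR = 3.63e-10 in edgeR). The change of *CPE* was thus below the fold change of a DEG, and 22.4% of all genes tested had a larger absolute change. For *SYT4* and *CPE*, whose groups were separate, the exact permutation test (2-sided) gave p = 0.10, the smallest that 3 dishes against 3 allow.

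*ENO2*, number 2026 at chr12:6914580-6923697 on the plus strand, had 495, 437 and 551 reads in the parental dishes against 519, 510 and 385 in the KO dishes. Scaled to 21.8, 20.2 and 22.2 CPM against 21.0, 21.0 and 19.0 CPM, the groups overlapped. The mean was 21.4 ± 1.07 CPM and 20.3 ± 1.12 CPM (SD, n = 3 each), and the log2 fold change of -0.07 (SE 0.07, FDR = 0.418 in edgeR) had a 95% interval of -0.22 to 0.07. A change of *ENO2* as large as 1.5-fold thus lay outside the interval.

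*SYP*, number 6855 at chrX:49187815-49200193 on the minus strand, encodes synaptophysin and had 47, 33 and 43 reads in the parental dishes against 38, 41 and 61 in the KO dishes. These were 2.07, 1.53 and 1.74 CPM against 1.54, 1.69 and 3.02 CPM, so that PACT KO replicate 3 was the highest library and the other two lay within the range of LNCaP parental cells. The mean was 1.78 ± 0.274 CPM and 2.08 ± 0.815 CPM (SD, n = 3 each). The log2 fold change was 0.19 (SE 0.21, FDR = 0.484 in edgeR) with a 95% interval of -0.23 to 0.62, which still holds a 1.5-fold rise. Without PACT KO replicate 3 the log2 fold change was -0.14 (FDR = 0.663). The gene shares 68 of its 5215 exonic bases with the antisense gene *SYP-AS1*.

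**Figure D2:**
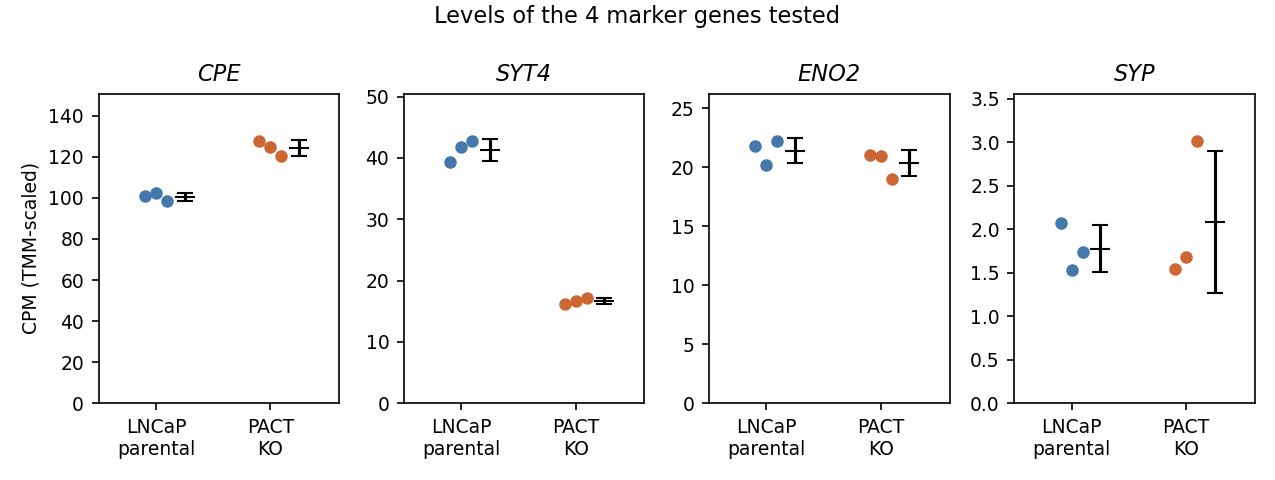
Levels of the 4 marker genes tested, in CPM scaled by TMM, on axes that start at 0. Points are libraries, and the black bars give mean and SD (n = 3). The groups are apart for *CPE* and *SYT4* and overlap for *ENO2* and *SYP*.

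Levels were compared between genes per kilobase of exon, with the union of exons in GENCODE release 29. In LNCaP parental cells the order was *CPE* at 34.0 ± 0.673, *SYT4* at 9.31 ± 0.402, *ENO2* at 5.00 ± 0.250 and *SYP* at 0.341 ± 0.0526 CPM per kb (SD, n = 3 each). In PACT KO cells it was *CPE* at 42.0 ± 1.26, *ENO2* at 4.75 ± 0.262, *SYT4* at 3.76 ± 0.124 and *SYP* at 0.399 ± 0.156 CPM per kb (SD, n = 3 each). *SYT4* and *ENO2* therefore stood in the opposite order in PACT KO cells. The ranges of neighbours in these orders did not overlap, as *SYT4* spanned 3.63 to 3.88 and *ENO2* 4.45 to 4.91 CPM per kb in PACT KO cells, against 8.86 to 9.65 and 4.72 to 5.20 in LNCaP parental cells. By level per kb among the 13697 tested genes with a length, *CPE* lay at the 90.3rd percentile in LNCaP parental and the 92.8th in PACT KO cells. *SYT4* moved from the 62.5th to the 37.8th percentile, while *ENO2* lay at the 45.2nd and the 43.5th and *SYP* at the 9.23rd and the 10.0th.

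To set the marker genes in their context, 162 further genes in 8 lists were read from the same fit. Of these, 55 were not detected in any library, 27 were detected but too low to test, and 80 were tested. By FDR, 13 were called lower and 16 higher, 36.3% of those tested against 34.2% of all genes. As DEGs, 2 were lower and 7 higher, where 2.65% and 3.07% of all genes tested were. Their median log2 fold change was 0.03.

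The granule list held 14 genes, of which 6 were not detected. Among those were *PCSK1* and *PCSK2*, the convertases that cut peptide precursors ahead of *CPE*, and *SCG3*, a granin that binds *CHGA* (named after their values were seen). Of the 4 tested, 1 fell, 0 rose and 3 were not called (25% called against 34.2% of all genes), with a median of 0.02. *CADPS2*, which primes dense-core vesicles for release, fell from 2.65 ± 0.378 to 0.854 ± 0.0412 CPM (n = 3 each, SD; log2FC -1.64, SE 0.21, FDR = 2.11e-08 in edgeR). It had 53, 55 and 76 reads in the parental dishes against 20, 21 and 18 in the KO dishes. The groups of *CADPS2* did not overlap, which also held for 52.2% of all genes tested.

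Of 15 neuropeptides and peptide hormones, 12 were not detected and 2 were tested, 1 of which fell, as did 18.8% of all genes. *GAL*, the precursor of the neuropeptide galanin, had 346, 249 and 325 reads in the parental dishes against 203, 231 and 157 in the KO dishes. Its level fell from 13.3 ± 1.87 to 8.49 ± 0.899 CPM (n = 3 each, SD; log2FC -0.64, SE 0.10, FDR = 1.71e-06 in edgeR). It was no longer a DEG without LNCaP parental replicate 1 (log2 fold change -0.54) or without PACT KO replicate 3 (-0.58), and it stayed under an FDR of 0.01 in both.

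The machinery of regulated exocytosis was more widely expressed, with 18 of 29 genes tested, and 3 fell, 3 rose and 12 were not called (median 0.02). The called share was 33.3%, against 34.2% of all genes tested. *RAB27A*, a small GTPase that docks granules at the plasma membrane, had 351, 348 and 395 reads in the parental dishes against 811, 738 and 620 in the KO dishes. The level of *RAB27A* rose from 15.8 ± 0.333 to 31.3 ± 1.35 CPM (n = 3 each, SD; log2FC 0.98, SE 0.07, FDR = 2.14e-15 in edgeR). *SYT1*, the calcium sensor of fast release, was at 1.26 ± 0.190 and 2.12 ± 0.211 CPM, with log2FC 0.76 (SE 0.20, FDR = 0.00177). Its call was lost without LNCaP parental replicate 1 (FDR = 0.0149), without PACT KO replicate 1 (FDR = 0.0139) and in DESeq2 (FDR = 0.0228). The scaffold *RIMS1*, the SNARE adaptor *NAPA* and the GTPase *RAB3D* had log2 fold changes of -0.29, -0.18 and -0.15. The t-SNARE *SNAP25* and the vesicle protein *SYN1*, which are typical of neurons, were among the 7 not detected (both named after their values were seen).

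Of 22 lineage factors of neuroendocrine cells, 11 were not detected. *NEUROD1*, *FOXA2* and *MYCN* had 0 reads in all 6 libraries, *SOX2* had 1 read in 1 library, and *SRRM4*, a neuronal splicing factor, had at most 3 reads in a library (named after their values were seen). Other factors of the list were expressed, the highest being *HES6* (also named after its values were seen). *HES6* was at 98.5 ± 3.70 CPM in parental and 97.4 ± 6.83 CPM in KO libraries (SD, n = 3 each) and was not called. Of the 8 tested, 1 rose, 0 fell and 7 were not called (12.5% called against 34.2% of all genes), with a median of 0.02. *ONECUT2*, a transcription factor linked to neuroendocrine features in prostate cancer, rose from 32.9 ± 1.40 to 38.6 ± 1.67 CPM (n = 3 each, SD; log2FC 0.24, SE 0.05, FDR = 1.78e-04 in edgeR). The factor with the largest log2 fold change was *POU3F2* (BRN2), a neural transcription factor named after its values were seen, with 9, 4 and 4 reads in the parental dishes against 15, 15 and 13 in the KO dishes. The groups did not overlap, but it was not called (log2FC 1.32, SE 0.46, FDR = 0.0194 in edgeR), while limma-voom called it (log2FC 1.36, FDR = 0.00400). *POU3F2* passed the filter on low counts only through its PACT KO libraries. The filter thus favoured a rise, and neither the separation nor these fits count as support for one.

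REST is a repressor that keeps neuronal and neuroendocrine genes silent in other cells. All 15 genes of its complex were tested, of which 2 fell, 2 rose and 11 were not called (median 0.00). That was 26.7% called against 34.2% of all genes tested, and none was a DEG. *REST* itself had 1884, 1865 and 2252 reads in the parental dishes against 2449, 2273 and 1907 in the KO dishes. Its level rose from 86.7 ± 4.00 to 95.6 ± 3.05 CPM (n = 3 each, SD; log2FC 0.14, SE 0.04, FDR = 0.00145 in edgeR). That call was lost without LNCaP parental replicate 1 (FDR = 0.0229) or PACT KO replicate 1 (FDR = 0.0132). The histone reader *PHF21A* had a log2FC of 0.21 and the deacetylase *HDAC1* one of -0.17. The demethylase *KDM1A* had one of -0.11 (FDR = 0.00354), and its call was lost with upper quartile scaling (FDR = 0.0211), with library totals alone (FDR = 0.0293), in DESeq2 (FDR = 0.0144) and when any of LNCaP parental replicates 1 or 2 or PACT KO replicates 2 or 3 was left out (FDR = 0.0201, 0.0152, 0.0217 and 0.0151).

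Notch signalling restrains neuroendocrine differentiation in several tissues, and 9 of its 10 genes were tested. Of these, 2 fell, 3 rose and 4 were not called (55.6% called against 34.2% of all genes), with a median of -0.09 and no DEG. Members of the same kind moved apart, since the receptor *NOTCH1* fell from 38.5 ± 1.82 CPM to 29.3 ± 1.03 CPM while *NOTCH3* rose from 64.5 ± 0.569 to 81.1 ± 0.686 CPM (n = 3 each, SD). Their log2 fold changes were -0.40 (SE 0.05) and 0.33 (SE 0.04). Of the ligands, *JAG1* and *DLL1* had log2 fold changes of 0.35 and 0.43, and *JAG2* one of -0.33.

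Among 29 other neuronal and neuroendocrine tumour markers, 12 were tested, and 2 fell, 5 rose and 5 were not called (median 0.11). Calls made up 58.3% of those tested, against 34.2% of all genes. All 4 DEGs of this list were higher, where 3.07% of all genes tested were DEGs in that direction. *MAP2*, a microtubule protein of dendrites, rose from 19.7 ± 0.965 CPM to 38.2 ± 1.14 CPM, and *SNAP91*, a clathrin assembly protein of synapses, from 2.19 ± 0.110 CPM to 4.88 ± 0.253 CPM. Their log2 fold changes were 0.95 (SE 0.06) and 1.15 (SE 0.14). *CHRNA3*, a subunit of nicotinic receptors, and the tubulin *TUBB3* had log2 fold changes of 1.10 and 0.16 (both named after their values were seen). *DDC*, which makes dopamine and serotonin, fell from 199.8 ± 2.98 CPM to 148.6 ± 3.37 CPM, and *SEZ6L2* from 118.6 ± 2.25 CPM to 91.7 ± 2.03 CPM. The libraries of the groups did not overlap for *MAP2*, *SNAP91*, *DDC* or *SEZ6L2*, which also held for 52.2% of all genes tested.

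**Figure D3:**
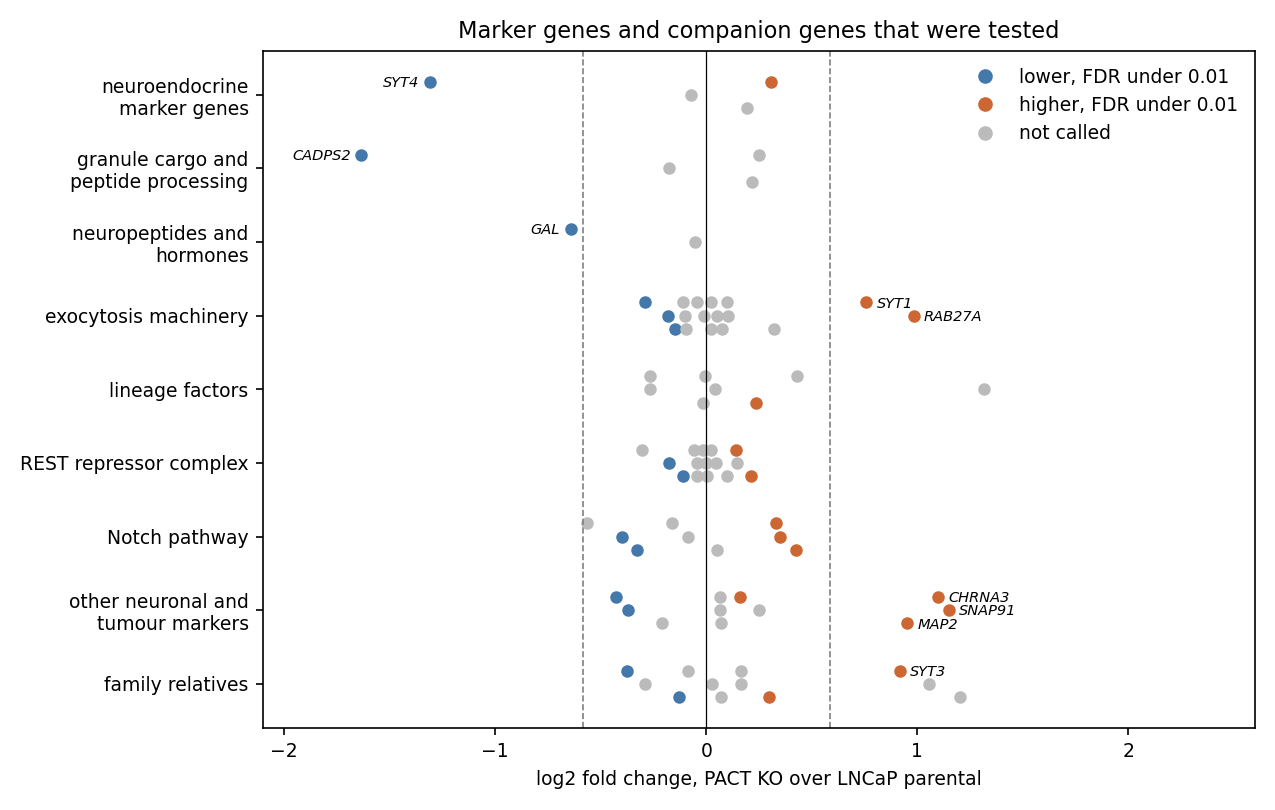
Log2 fold change of PACT KO over LNCaP parental for the 4 marker genes and the 80 companion genes tested (2 of them not shown), 1 point per gene, in rows by list. Blue and orange mark genes called lower and higher at an FDR under 0.01, the dashed lines mark a fold change of 1.5, and DEGs are named. All 3 DEGs called lower lie to the left of the lines, among them *SYT4* and *CADPS2*, and *RAB27A* and *MAP2* are among those to the right.

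Relatives of the marker genes were compared with them as well. The enolase *ENO1*, which serves glycolysis in most tissues, fell from 1239 ± 27.1 to 954.5 ± 23.7 CPM (n = 3 each, SD; log2FC -0.38, SE 0.03, FDR = 7.21e-15 in edgeR), beside the -0.07 of *ENO2*. Per kb, *ENO1* stood at 234.9 CPM and *ENO2* at 5.00 CPM in LNCaP parental cells. *NCAM2*, the paralog of *NCAM1*, was at 71.2 CPM per kb in LNCaP parental and 87.4 CPM per kb in PACT KO cells, where *NCAM1* was at 0.0248 and 0.00797. The reads of *NCAM2* numbered 13038, 13107 and 15067 in the parental dishes against 18174, 17770 and 14804 in the KO dishes, and its log2 fold change was 0.30 (SE 0.03, FDR = 5.70e-12). Of the 17 synaptotagmins *SYT1* to *SYT17*, 7 were not detected and 6 were tested, with *SYT4* lower and *SYT1* and *SYT3* higher. *SYT3* had log2FC 0.92 (SE 0.24, FDR = 0.00216 in edgeR), which was not called without LNCaP parental replicate 3 (FDR = 0.0190), without PACT KO replicate 3 (FDR = 0.0160) or in DESeq2 (FDR = 0.0189). *SYT11*, the synaptotagmin closest to *SYT4*, had 1, 5 and 2 reads in the parental dishes against 8, 9 and 5 in the KO dishes and was not tested. *SYPL1*, a relative of *SYP* found in many tissues, and *CPD*, a carboxypeptidase of the secretory pathway, were not called (log2 fold change -0.09 and 0.07). *SYNGR2* had a log2FC of -0.13 (FDR = 7.96e-05). The list of relatives held 28 genes, of which 12 were tested, 2 fell, 2 rose and 8 were not called (median 0.12). That median includes *SYT13* and *SYT17* (log2 fold change 1.06 and 1.20, not called, named after their values were seen). Both passed the filter on low counts only through their PACT KO libraries, so the filter favoured a rise in them. Its called share was 33.3%, against 34.2% of all genes tested.

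Since the PACT KO cells are 1 clone, the genes beside each marker gene on its chromosome were examined, 5 tested genes on each side in the order of RefSeq. Around *SYT4*, 3 of 10 genes were lower, 1 was higher and 6 were not called, with a median log2 fold change of -0.11. Of all genes tested, 18.8% were called lower and 15.3% higher. Both DEGs among the 10 were lower, where 5.72% of all genes tested were DEGs in either direction and 2.65% were lower DEGs. *MIR924HG*, which starts 4061 kb away, had a log2FC of -0.83 (FDR = 0.00590 in edgeR), and this call was lost with DESeq2 (FDR = 0.0435), with a replicate block (FDR = 0.0117) and without LNCaP parental replicate 1 or 3 or PACT KO replicate 1 or 3 (FDR = 0.0137, 0.0490, 0.0543 and 0.0104). *PSTPIP2*, 2716 kb away, had 20, 29 and 23 reads in the parental dishes against 2, 1 and 0 in the KO dishes. Its summed reads, 72 against 3, were 24.1-fold lower in PACT KO cells after scaling (95% exact Clopper-Pearson interval 7.91 to 119.4, which covers counting error over pooled dishes and not the spread between dishes). The nearest neighbour *RIT2*, 525 kb away, was at 0.692 and 0.270 CPM and was not called (log2 fold change -1.32, SE 0.43, FDR = 0.0111, named after its values were seen). It was called without the filter on low counts (FDR = 0.00892), with limma-voom (FDR = 0.00339), with a replicate block (FDR = 0.00976) and without PACT KO replicate 2 (FDR = 0.00840). *RIT2* and *PSTPIP2* passed that filter only through their LNCaP parental libraries, so the filter favoured a fall in both.

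Around *CPE*, 3 of 10 genes were lower, 4 higher and 3 not called, with a median of 0.06. Here too, 34.2% of all genes tested were called and 5.72% were DEGs. *TLL1*, whose start lies 494 kb from that of *CPE*, fell from 7.79 ± 0.351 to 1.52 ± 0.400 CPM (n = 3 each, SD; log2FC -2.35, SE 0.14, FDR = 2.15e-16 in edgeR). *DDX60* and *DDX60L*, whose starts lie 2837 and 2978 kb from that of *CPE*, had log2 fold changes of 0.71 and 0.83. *DDX60L* lost its call in DESeq2 (FDR = 0.0258) and without LNCaP parental replicate 1 or 3 or PACT KO replicate 1 or 2 (FDR = 0.0397, 0.0101, 0.0165 and 0.0128). Beside *SYP*, 8 of 10 genes were not called, *PLP2* fell (log2 fold change -2.57, SE 0.20) and *PAGE1* rose (1.97, SE 0.13). Beside *ENO2*, 8 of 10 were not called and none was a DEG. Among the genes beside the 5 marker genes that were not tested, *FERMT1* near *CHGB* had a log2FC of -1.14 and *SERPINE2* near *SCG2* one of 0.74, and these were the only DEGs.

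**Figure D4:**
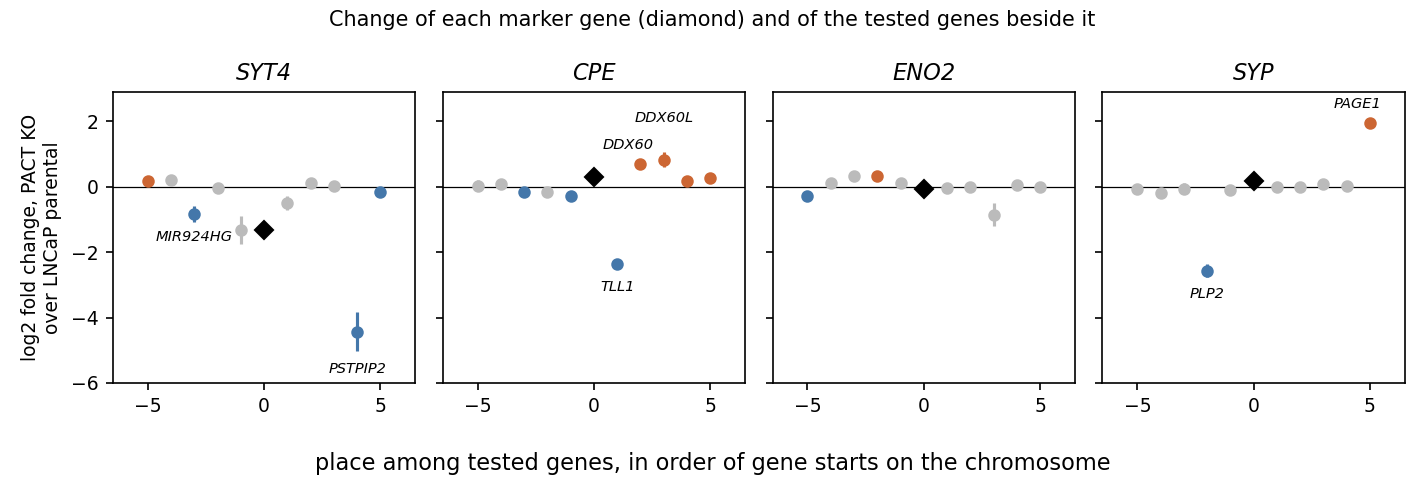
Log2 fold change (PACT KO over LNCaP parental, with standard error) of *SYT4*, *CPE*, *ENO2* and *SYP* as black diamonds at place 0 and of the 5 tested genes on each side, in order of their starts. Blue, orange and grey mark genes called lower, called higher and not called, and DEGs are named. The point of *PSTPIP2*, with at most 2 reads in each PACT KO library, depends on the small count that the fit adds, and most genes beside *ENO2* and *SYP* lie near 0.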

How the data were processed

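Whole-number read counts per NCBI Gene number were deposited by the authors without normalization for 3 LNCaP parental and 3 PACT KO libraries. The submitters' processing notes name hg38, bcl2fastq 2.20.0.422, STAR 2.5.3a, StringTie 1.3.3 and featureCounts 1.5.3. Which annotation was counted, and whether by strand, is not given in the sources used here. Nothing in the labels says that the dishes were independent cultures, so p-values measure the spread between these dishes, which may be technical. One row that named no gene, with 0.0688% to 0.0708% of each library, was left out. Symbols and positions came from RefSeq (GRCh38.p14), which matched 27540 of 29806 numbers (92.4%).

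Genes were filtered with filterByExpr, scaled by TMM and tested with glmQLFit and glmQLFTest in edgeR 4.0.16 (R 4.3.3, 2-sided, Benjamini-Hochberg over all 14462 genes tested). Standard errors (SE) were |log2FC| over the root of F. CPM use the TMM-scaled library totals. Permutation tests used log2(CPM + 0.5). Replicate pairs varied 1.55 to 3.58 times as much as sampling noise alone, so no library was a copy. Alternatives were other scalings, filters and thresholds, DESeq2 1.42.0, limma-voom (limma 3.58.1), the replicate number as a block, and each library left out. The fits were tested on simulated data. The marker genes and lists were chosen with earlier results of these data known.

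Besides the marker genes, *PRKRA* and 4 relatives, the text names DEGs of the REST and lineage lists, at most 3 called genes per list and direction by smallest p, and DEGs among the 5 tested genes on each side. Promoters came from RefSeq, and figures were drawn with matplotlib 3.10.9 in Python 3.11.15. Values of some genes of the lists are not reported here, although counts over the lists include them.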

Additional observations from a re-analysis of the deposited data

How the results depend on the processing

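*SYT4*, *CPE* and *ENO2* kept their direction and their side of the FDR threshold under all 14 alternatives to which each could be put. The log2 fold change ranged from -1.35 to -1.28 for *SYT4*, from 0.29 to 0.34 for *CPE* and from -0.11 to -0.03 for *ENO2* (FDR 0.273 to 0.829). *SYP* ranged from -0.14 to 0.38 over the libraries left out, with the sign reversed (-0.14) without PACT KO replicate 3, and was never called. Counts of calls among the marker genes were the same under every alternative. With a fold threshold of 2, 175 genes were DEGs lower and 147 higher in PACT KO cells, and among the companion genes 1 was lower and 3 higher. With each library left out in turn, the companion genes held 1 to 2 lower DEGs. With library totals alone in place of TMM, the exocytosis list held 5 genes called higher in place of 3 and the relatives 4 in place of 2, and *CPD* was called (FDR = 0.00665). *SYPL1* was called without LNCaP parental replicate 2 (FDR = 0.00719). In limma-voom, *POU3F2* was called as a DEG, a gene that passed the filter only through its PACT KO libraries. Over all genes, more were called lower than higher with TMM (55.2% of calls lower), but fewer with upper quartile scaling (2350 lower, 2652 higher) and with library totals alone (2286 and 2731). Deviations of same-numbered replicates from their group means correlated at -0.09, 0.00 and -0.09, so the numbers do not pair the dishes. With the replicate number as a block, 2631 genes were lower and 2139 higher, against 2726 and 2214, and the counts for the marker and companion genes stayed at 1 and 1 and at 13 and 16. At these depths, no difference was called for the marker genes at a few reads.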
